A study of Mus musculus with 16 samples.

Results

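The binding of Sox2 at day 1 was compared between fibroblasts given Oct4-SK and fibroblasts given Oct6-SK. The members were the Sox2 summits of both libraries on chromosomes 1 to 19, X and Y, a summit being the position of highest enrichment within a called peak, and each is called a site here. A site was shared when the other library had a summit within 100 bp. The Oct4-SK library gave 15219 sites and the Oct6-SK library 3242, together 18461 of the 226962 summits in the 13 lists of the series.

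The series mapped transcription factors by ChIP-seq in OG2 mouse embryonic fibroblasts (MEFs), primary cells that carry a GFP transgene driven by the Oct4 promoter. All cells received pMX retroviruses for Sox2 and Klf4 (the S and K of each name) and 1 POU factor, and were then moved to the chemically defined iCD1 medium, the switch being day 0. In the groups used here the POU factor was Oct4, Oct6, Oct4defSox2 (an Oct4 mutant impaired in pairing with Sox2 on DNA), Oct4 S151M or Oct6 M151S (Oct4 and Oct6 with an exchange of 1 residue that alters homodimer formation). The antibody was against Sox2 for the 2 lists compared, and against Sox2 or the POU factor for the others. The cultures were whole transduced populations, not clones or sorted cells, and each group held 1 library. Intervals below are therefore 95% counting intervals of shares (Wilson) or of their differences (Newcombe). They compare libraries, leave out variation between cultures and give no test of the cocktails.

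Sox2 is an HMG-box factor that binds a short motif in the DNA minor groove. Oct4 (gene Pou5f1) and Oct6 (gene Pou3f1) are POU factors, which bind DNA with a POU-specific domain and a homeodomain joined by a linker. In pluripotent cells Oct4 and Sox2 bind side by side on a composite SoxOct element, whereas Oct6 favours the MORE, a palindrome filled by a POU homodimer. Oct4 with Sox2 and Klf4 converts fibroblasts to pluripotency, and the comparison asks how far the sites of Sox2 change when Oct6 takes the place of Oct4.

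The sequences below are 201 bp windows centred on the summits that stood highest in each class, read from the plus strand of GRCm38 (mm10), with the 15-letter SoxOct element (up to 2 mismatches), the Sox motif (CCATTGT or CCTTTGT) and the AP-1 motif (TGACTCA) in capitals wherever a match on either strand was found. Where a motif occurred more than once, the capitals mark 1 match of it. The highest shared site lay between genes at chr14:118230279-118230479, 6651 bp from a start of Sox21, and its SoxOct match had 1 mismatch.
Sox21 region: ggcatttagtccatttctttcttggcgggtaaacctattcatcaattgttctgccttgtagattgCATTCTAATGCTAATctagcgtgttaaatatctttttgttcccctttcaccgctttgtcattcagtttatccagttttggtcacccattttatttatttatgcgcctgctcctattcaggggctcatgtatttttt
The other pair of shared windows, chosen after their values were seen, shows a Sox match alone at chr14:60957897-60958097, 79894 bp from a start of Tnfrsf19, and a Sox match with an AP-1 match in an intron of Adh7 at chr3:138225776-138225976.
Tnfrsf19 region: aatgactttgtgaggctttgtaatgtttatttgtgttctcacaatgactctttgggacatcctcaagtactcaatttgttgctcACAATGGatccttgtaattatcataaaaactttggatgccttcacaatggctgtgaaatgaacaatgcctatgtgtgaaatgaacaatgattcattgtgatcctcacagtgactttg
Adh7 intron: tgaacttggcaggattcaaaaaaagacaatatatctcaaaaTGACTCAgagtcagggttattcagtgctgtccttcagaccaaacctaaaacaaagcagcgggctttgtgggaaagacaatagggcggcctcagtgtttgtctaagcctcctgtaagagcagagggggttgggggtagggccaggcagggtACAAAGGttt
The highest site of Oct4-SK alone was in a coding exon of the predicted gene Gm10800 (chr2:98666704-98666904) and held none of these 3 motifs. The highest one with a SoxOct match (2 mismatches, minus strand) was in an intron of Itfg1 at chr8:85729294-85729494.
Gm10800 exon: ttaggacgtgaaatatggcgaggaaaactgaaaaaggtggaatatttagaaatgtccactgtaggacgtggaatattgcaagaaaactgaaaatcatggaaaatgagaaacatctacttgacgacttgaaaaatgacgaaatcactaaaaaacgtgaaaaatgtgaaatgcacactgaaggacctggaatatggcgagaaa
Itfg1 intron: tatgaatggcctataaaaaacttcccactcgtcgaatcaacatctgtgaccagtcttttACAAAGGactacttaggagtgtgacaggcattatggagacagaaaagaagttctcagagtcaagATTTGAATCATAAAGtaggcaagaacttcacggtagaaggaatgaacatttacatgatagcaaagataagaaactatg
The highest site of Oct6-SK alone was in the coding exon of Pou3f1, the gene of Oct6 itself (chr4:124658645-124658845), again without these motifs. The highest one with a SoxOct match (2 mismatches, plus strand) was in an intron of Lonp2 at chr8:86692689-86692889 and also held an AP-1 match.
Pou3f1 exon: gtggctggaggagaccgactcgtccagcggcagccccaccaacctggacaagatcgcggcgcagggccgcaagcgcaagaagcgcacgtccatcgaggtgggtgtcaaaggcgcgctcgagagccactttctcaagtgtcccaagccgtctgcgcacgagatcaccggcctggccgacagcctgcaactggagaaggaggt
Lonp2 intron: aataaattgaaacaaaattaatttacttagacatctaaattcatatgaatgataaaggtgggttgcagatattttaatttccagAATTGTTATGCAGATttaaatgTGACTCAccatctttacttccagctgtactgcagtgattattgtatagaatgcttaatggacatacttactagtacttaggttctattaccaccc

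Most Sox2 sites of either library had no counterpart in the other. Of the Oct4-SK sites, 803 of 15219 (5.28%, 4.93 to 5.64) had an Oct6-SK summit within 100 bp. In the other direction, 806 of 3242 Oct6-SK sites (24.9%, 23.4 to 26.4) had an Oct4-SK summit. These shares are also the background against which all later shares of shared sites are read. The remaining 14416 and 2436 sites are called Oct4-SK-only and Oct6-SK-only, which says that no summit was called nearby and not that Sox2 was absent.

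The lists differed in length by a factor of 4.69, and each summit carries a score, the -log10 p-value of the peak caller, that was not scaled between libraries. Scores ran from 4.02 to 77.8 in Oct4-SK with a median of 7.66, and from 4.00 to 71.5 in Oct6-SK with a median of 7.03. A score of 10 or more was reached by 29.7% of Oct4-SK sites and 18.2% of Oct6-SK sites. The depth of the libraries is unknown from the summit lists, so its part in the list lengths was not tested.

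With equal numbers of top-ranked summits the sharing was low as well. Among the 3242 highest Oct4-SK sites, 498 (15.4%, 14.2 to 16.6) had a summit among the 3242 Oct6-SK sites. At 1000 summits each the share was 17.3% (15.1 to 19.8), at 500 it was 18.8% (15.6 to 22.5) and at 100 it was 10 of 100 (5.52 to 17.4). With both lists cut, sharing therefore stayed between 10% and 18.8% at every number tried, and the last of the 3242 Oct4-SK sites had a score of 11.3. Against the whole other list, 55 of the 100 highest Oct4-SK sites and 67 of the 100 highest Oct6-SK sites were shared.

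Sharing was highest at the highest scores in both lists. Of the 325 highest Oct6-SK sites, 171 (52.6%, 47.2 to 58.0) lay at an Oct4-SK summit, against 44 (13.6%, 10.3 to 17.7) of the 324 lowest. In Oct4-SK the share went from 22.7% (20.7 to 24.9) of the 1522 highest sites to 1.05% (0.649 to 1.70) of the 1521 lowest. Shared sites accordingly had higher scores, with a median of 13.4 against 7.66 for Oct4-SK-only sites on the Oct4-SK scale, and of 8.59 against 6.86 on the Oct6-SK scale. At the shared sites the scores of both libraries were only loosely related (Pearson 0.290, Spearman 0.241, 803 sites, a description across sites of 2 libraries). The score was higher in Oct4-SK at 644 of them and in Oct6-SK at 159.

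**Figure D1:**
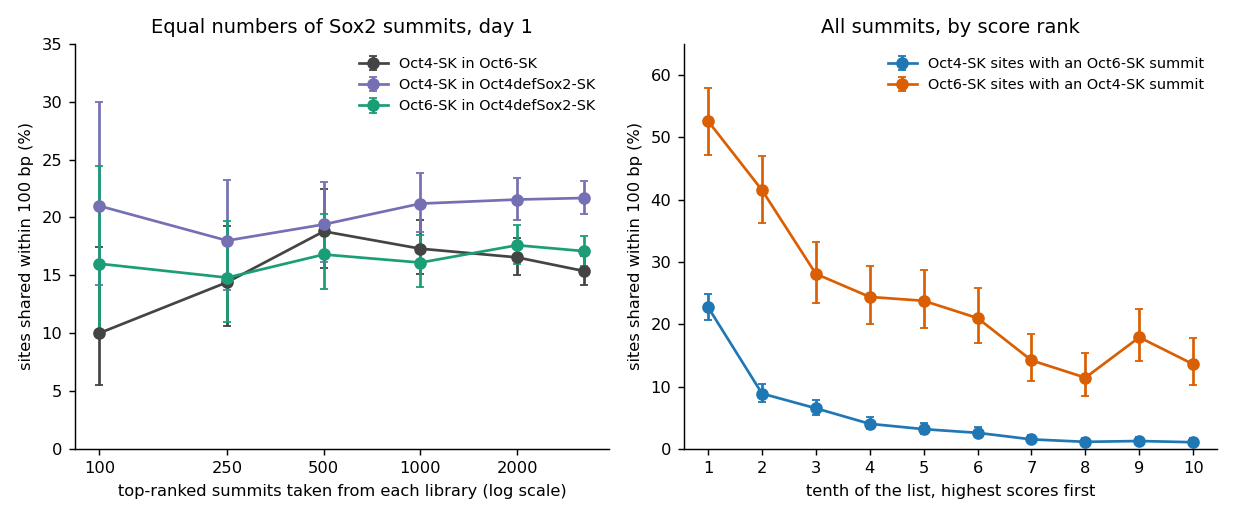
Left, percent of sites shared within 100 bp (y axis) when equal numbers of top-ranked Sox2 day 1 summits (x axis, log scale) were taken from 2 libraries; right, percent shared in 10 equal parts of the whole lists ordered by score (highest first). Points are shares of 1 library pair and bars 95% Wilson intervals; the Oct6-SK curve falls from 52.6% to 13.6% and the Oct4-SK curve from 22.7% to 1.05%.

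The limit of 100 bp cut through a continuous range of distances. The shared Oct6-SK summits lay a median of 44 bp (quartiles 21 and 70) from the nearest Oct4-SK summit. Just inside the limit, 165 Oct6-SK summits were 76 to 100 bp away, and just outside it 214 were 101 to 150 bp away. Only 90 were 251 to 500 bp away and 56 were 501 to 1000 bp away. With a limit of 250 bp the shared fraction of Oct6-SK sites was 37.9%, and with 50 bp it was 13.9%.

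The Oct4defSox2-SK library of day 1 gave a further reference that the definition of shared sites did not use. At 3242 summits each, 21.7% of the Oct4-SK sites (20.3 to 23.1) had an Oct4defSox2-SK summit, against 15.4% with an Oct6-SK summit. The difference was -6.32 percentage points (-7.92 to -4.72), so at this number Sox2 in Oct4-SK overlapped more with Sox2 in Oct4defSox2-SK than in Oct6-SK. At 500 summits each the shares were 19.4% (16.2 to 23.1) and 18.8% (15.6 to 22.5), with intervals that overlap. The Oct6-SK sites overlapped at 15.4% with Oct4-SK and 17.1% with Oct4defSox2-SK, a difference of -1.67 points (-3.11 to -0.224). The order of this pair turned in value at 1000 summits each (17.3% and 16.1%) and at 500 (18.8% and 16.8%). It did not turn at 2000 (16.55% and 17.6%), 250 (14.4% and 14.8%) or 100 (10% and 16%).

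Sites shared by Oct4-SK and Oct6-SK were found under the third cocktail at a higher rate than the others. An Oct4defSox2-SK Sox2 summit lay at 47.4% of shared sites (44.0 to 50.9), at 8.58% of Oct4-SK-only sites (8.13 to 9.05) and at 13.1% of Oct6-SK-only sites (11.9 to 14.5). With equal numbers of summits these were 55.6%, 23.4% and 15.5%. The shared sites exceeded the Oct4-SK-only sites by 38.9 points (35.4 to 42.4) and the Oct6-SK-only sites by 34.3 points (30.6 to 38.0). With 50 bp in place of 100 bp as the limit throughout, these excesses were 25.5 points (21.4 to 29.98) and 21.2 points (16.9 to 25.7). Since shared sites have higher scores, their strength and their sharing cannot be told apart in these shares.

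The motif of Sox2 itself was the most frequent of the 8 searched. Each motif was sought on both strands within 100 bp of the summit, exactly except for SoxOct (up to 2 mismatches) and MORE (up to 1 mismatch), and matches of different motifs may overlap. The share in windows of the same length 2 kb to either side served as background. The Sox motif was in 18.95% of all Oct4-SK windows against 7.47% of their flanks, and in 26.7% of Oct6-SK windows against 8.44% of theirs. The ratios were 2.54 and 3.17, below those of the AP-1 motif in the same windows (2.85 and 4.08), and are what the files hold as a check of the antibody label.

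Shared sites held the Sox motif most often. It occurred in 38.2% of shared windows (34.9 to 41.6), in 17.9% of Oct4-SK-only windows (17.3 to 18.5) and in 23.2% of Oct6-SK-only windows (21.5 to 24.9). The excess of shared over Oct4-SK-only sites was 20.4 points (17.0 to 23.8), and that over Oct6-SK-only sites, taken at the Oct6-SK summits, 14.4 points (10.7 to 18.2). With equal numbers the same shares were 41.4%, 29.0% and 24.4%, so that the Oct4-SK-only share then stood above the Oct6-SK-only share. The matches were centred on the summits, with 2.83 per kb within 50 bp of shared summits against 0.431 per kb at 500 to 1000 bp. Around Oct4-SK-only and Oct6-SK-only summits the density within 50 bp was 1.10 and 1.48 per kb.

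AP-1, a dimer of Fos and Jun proteins active at fibroblast enhancers, followed the same order. Its motif was in 16.3% of shared windows (13.9 to 19.03), in 9.41% of Oct4-SK-only windows (8.95 to 9.90) and in 10.96% of Oct6-SK-only windows (9.78 to 12.3), with flanks between 3.02% and 3.61%. With equal numbers these shares were 17.3%, 13.6% and 11.6%, and the last pair changed places as it did for Sox. A window with both a Sox and an AP-1 match, as in the Adh7 intron shown above, was found at 5.60% of shared, 2.21% of Oct4-SK-only and 2.67% of Oct6-SK-only sites, the last pair being 4.26% and 2.99% with equal numbers. None of SoxOct, Sox, MORE, octamer and AP-1 was present in 45.8% of shared windows, 69.5% of Oct4-SK-only windows and 62.0% of Oct6-SK-only windows. With equal numbers the last pair was 54.8% and 60.7%, so its order turned as well.

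**Figure D2:**
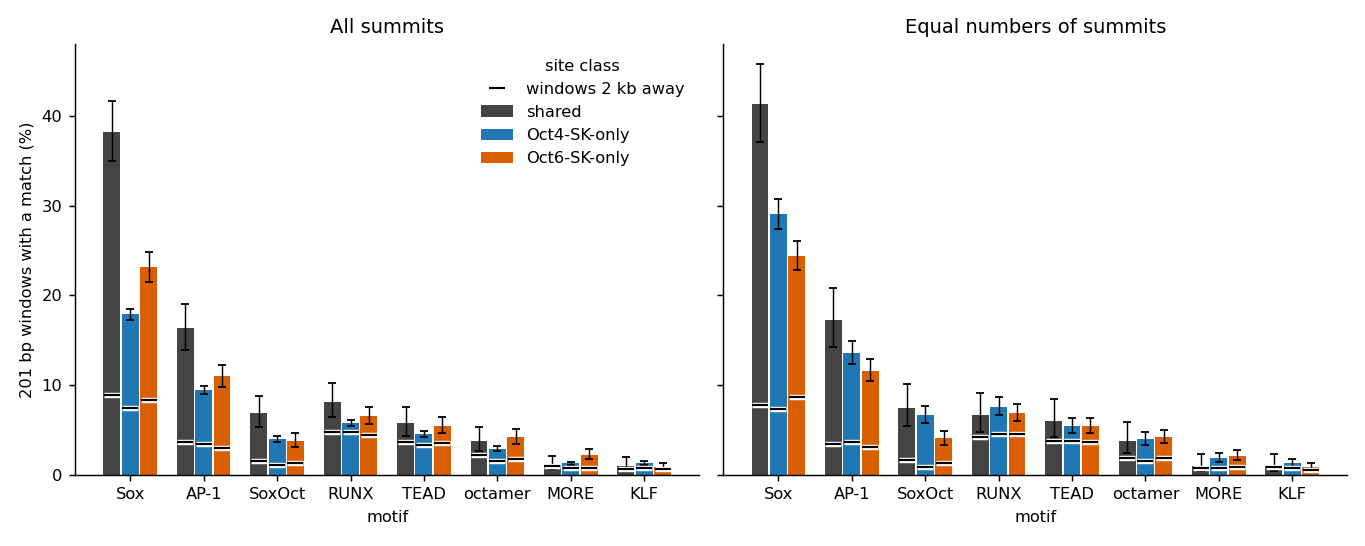
Percent of 201 bp windows with a match to each motif (bars, 95% Wilson intervals) in shared, Oct4-SK-only and Oct6-SK-only Sox2 sites, with all summits (left) and with equal numbers of summits (right). Short horizontal marks give the share in windows 2 kb away; Sox, at 38.2% of shared windows, stands highest above its marks.

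A match to the composite SoxOct element was rare at the Sox2 sites of both libraries, in a scan that leaves out elements with more than 2 mismatches to its consensus. It was in 4.17% of Oct4-SK windows (3.86 to 4.50) and in 4.63% of Oct6-SK windows (3.96 to 5.41), with flanks at 1.16% and 1.31%. Over all summits the difference was -0.461 points (-1.30 to 0.286). With equal numbers the Oct4-SK share was 6.79% and the difference turned to 2.16 points (1.03 to 3.30). The same change of sign was seen for the Sox motif, from -7.79 points (-9.46 to -6.17) to 4.16 points (1.959 to 6.36), and for AP-1, from -2.62 points (-3.89 to -1.43) to 1.73 points (0.0757 to 3.38). Which library was richer in these motifs thus depended on how many Oct4-SK summits were counted.

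Shares of these motifs fell with the score within each list. In Oct4-SK a SoxOct match was at 7.82% of the 1522 highest and 2.24% of the 1521 lowest sites, and a Sox match at 34.4% and 12.3%. For the 325 highest and 324 lowest Oct6-SK sites the values were 7.69% and 2.78% for SoxOct and 39.4% and 16.0% for Sox. The SoxOct shares of the highest sites did not differ beyond counting error, with intervals of 6.57 to 9.28 in Oct4-SK and 5.26 to 11.1 in Oct6-SK.

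At the mismatches allowed, which differ between motifs, the POU motifs other than SoxOct were rarer than SoxOct itself in the Oct4-SK and Oct6-SK windows. MORE was in 1.26% of Oct4-SK windows and 2.10% of Oct6-SK windows, with flanks at 0.798% and 0.848%, a difference of -0.842 points (-1.42 to -0.364) that came to -0.370 (-1.05 to 0.302) with equal numbers. The octamer ATGCAAAT was in 2.96% and 4.07% of windows, a difference of -1.11 points (-1.89 to -0.420) and of -0.0925 (-1.06 to 0.870) with equal numbers. The higher shares of both in Oct6-SK were therefore within counting error once the lists were equally long. By class, MORE was in 1.12% of shared, 1.26% of Oct4-SK-only and 2.26% of Oct6-SK-only windows. In Oct6-SK-only windows the octamer, at 4.19%, stood above SoxOct, at 3.82%.

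The KLF motif (GGGCGTGGC, GGGTGTGGC, GGGCGGGGC or GGGTGGGGC), bound by the Klf4 of both cocktails, was in 1.29% of Oct4-SK and 0.925% of Oct6-SK windows, a difference of 0.369 points (-0.0578 to 0.706). The TEAD motif CATTCCA was in 4.57% and 5.61% of windows, and the RUNX motif TGTGGTT in 5.87% and 6.76%, with flanks between 3.37% and 4.76%.

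**Figure D3:**
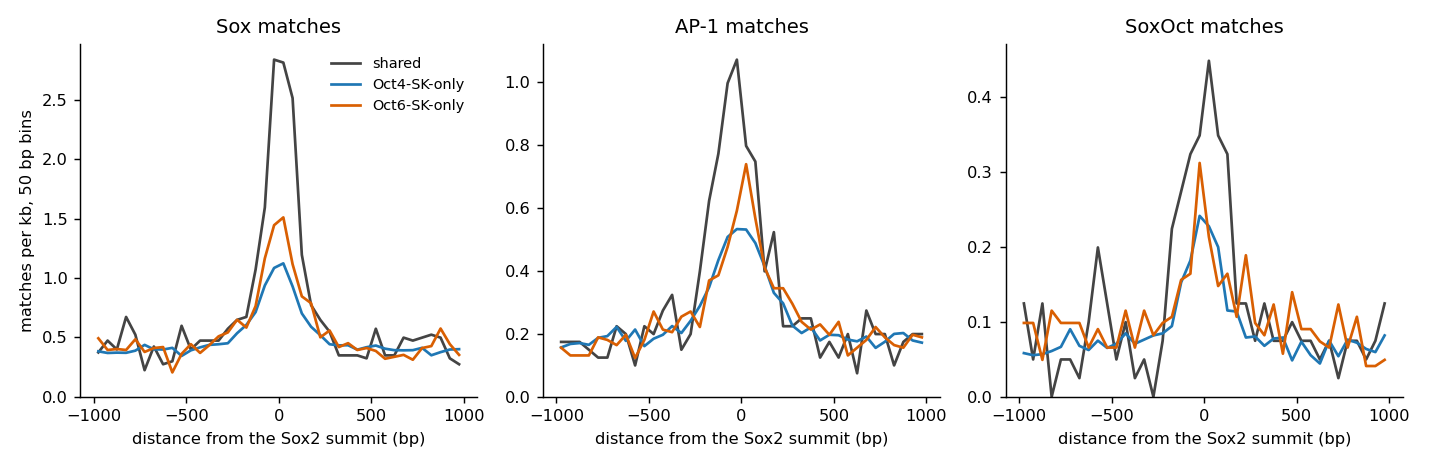
Matches per kb (y axis, 50 bp bins, own scale in each panel) of the Sox, AP-1 and SoxOct motifs against the distance from the Sox2 summit (x axis, bp), averaged over the 803 shared, 14416 Oct4-SK-only and 2436 Oct6-SK-only sites. All 3 motifs rise toward the summit, and within 50 bp Sox reached 2.83 per kb at shared, 1.48 at Oct6-SK-only and 1.10 at Oct4-SK-only sites.

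Read from the motif, sites with a SoxOct, Sox or AP-1 match were shared more often than those without one. Of the 150 Oct6-SK sites with a SoxOct match, 57 (38.0%, 30.6 to 46.0) had an Oct4-SK summit, against 24.2% of the sites without, a difference of 13.8 points (6.24 to 21.9). A Sox match gave 34.9% against 21.2%, and an AP-1 match 33.6% against 23.6%. MORE and the octamer went the other way in value, with 13 of 68 (19.1%) against 24.98% and 22.7% against 24.95%, but the intervals of these differences (-13.6 to 5.13 and -8.73 to 5.78) span 0. In Oct4-SK, sites with a SoxOct, Sox or AP-1 match were shared at 8.68%, 10.6% and 8.80%, and sites without at 5.13%, 4.02% and 4.89%. A RUNX match gave 7.27% against 5.15%. Sites of Oct4-SK with a MORE or KLF match were shared at 4.71% and 4.06%, against 5.28% and 5.29% without, and both intervals span 0. With equal numbers the SoxOct share at the Oct4-SK summits was 7.43% for shared and 6.67% for Oct4-SK-only sites, a difference of 0.761 points (-1.47 to 3.54) where all summits gave 2.83 (1.25 to 4.82). For RUNX it was 6.63% and 7.58%, a difference of -0.954 points (-3.10 to 1.75), against 2.34 (0.606 to 4.47) with all summits. At the Oct6-SK summits the SoxOct share with equal numbers was 7.8% for shared and 4.05% for Oct6-SK-only sites. That difference, 3.75 points (1.56 to 6.52), still excluded 0.

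A search over all 7-letter words was made without use of a preset motif. Words found in under 3% of windows were left out. At shared sites the word with the highest ratio to the flanks was ACAATAG, which reads CTATTGT on the other strand, in 19.7% of windows against 2.80% of flanks, a ratio of 7.02. CCTATTC, which holds no Sox core, followed with 7.00 in 5.23% of windows. At Oct4-SK-only sites the same word led with a ratio of 2.77, and the AP-1 word TGACTCA followed with 2.75. At Oct6-SK-only sites ATTGTTC led with 3.99, before ACAATAG with 3.89, and TGACTCA had 3.63. Over the whole lists at equal numbers the ratios were close, with 4.82 in Oct4-SK and 4.66 in Oct6-SK for ACAATAG and 3.88 and 4.08 for TGACTCA. The leading word of every class thus contained the Sox core ATTGT on 1 of its strands, by a small margin at shared and Oct4-SK-only sites.

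Occupancy by the POU factors was compared next, at sites defined by Sox2 alone. The Oct4 library of Oct4-SK at day 1 had a summit at 33.3% of shared sites (30.1 to 36.6), at 9.41% of Oct4-SK-only sites (8.94 to 9.89) and at 6.90% of Oct6-SK-only sites (5.96 to 7.97). Shared sites exceeded Oct4-SK-only sites by 23.8 points (20.6 to 27.2), and by 14.8 points (10.3 to 19.4) with equal numbers, where the 3 shares were 39.2%, 24.3% and 8.64%. With 50 bp as the limit throughout, the excess was 13.1 points (9.72 to 16.98). Seen from Oct4, Sox2 sites of Oct4-SK with an Oct4 summit were shared by Oct6-SK at 16.5% (14.7 to 18.3), against 3.94% (3.63 to 4.28) of those without. Sites with both summits in Oct4-SK were thus found in Oct6-SK more often than the background of 5.28%.

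The SoxOct element was more frequent at sites with an Oct4 summit. Of the 55 shared sites with a SoxOct match, 38 (69.1%, 56.0 to 79.7) had an Oct4 summit, against 36.4% (32.6 to 40.4) of Oct4-SK-only and 24.7% (17.1 to 34.4) of Oct6-SK-only sites with one. In turn, SoxOct was in 14.2% of shared sites with an Oct4 summit and in 3.17% of those without, and in 15.6% and 2.82% of Oct4-SK-only sites. The Sox motif was in 38.6% and 38.1% of shared sites with and without an Oct4 summit, but in 23.7% (21.5 to 26.01) and 17.3% (16.6 to 17.9) of Oct4-SK-only sites. At sites with an Oct4 summit, the intervals of the SoxOct share overlapped between shared (10.55 to 18.9) and Oct4-SK-only sites (13.7 to 17.6).

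The mutant POU factors were also found more often at shared sites. Oct4defSox2 at day 1 had a summit at 68.2% of shared, 23.6% of Oct4-SK-only and 28.3% of Oct6-SK-only sites, and Oct4 S151M at 50.3%, 20.7% and 23.5%. For both, the Oct4-SK-only share was below the Oct6-SK-only share with all summits and above it with equal numbers, at 53.5% against 31.9% for Oct4defSox2 and 43.6% against 25.6% for Oct4 S151M. Oct6 M151S, the one Oct6 protein mapped among these lists, had a summit at 22.8% (20.02 to 25.8) of shared, 4.09% (3.78 to 4.43) of Oct4-SK-only and 10.8% (9.59 to 12.05) of Oct6-SK-only sites. With equal numbers the last pair was 9.95% and 11.3%, with intervals that overlap. The title of this library gives day 1 and another of its labels day 2, so its day is in doubt. The Oct6 M151S list was called at a lower score, from 2.301 upward. Oct6 itself was not analysed here.

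**Figure D4:**
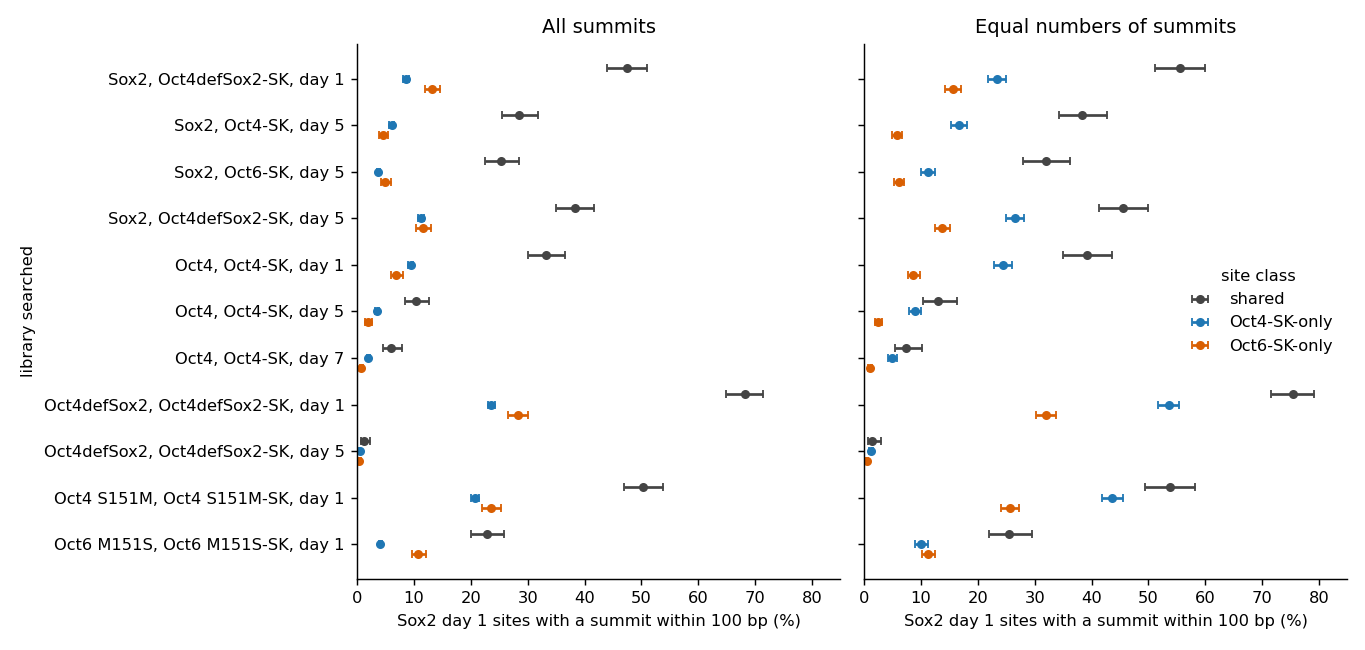
Percent of shared, Oct4-SK-only and Oct6-SK-only Sox2 day 1 sites (x axis, points with 95% Wilson intervals) that had a summit within 100 bp in each of the other 11 libraries (y axis), with all summits (left) and equal numbers (right). Shared sites lie to the right in every library, from 68.2% for Oct4defSox2 at day 1 down to 1.25% for Oct4defSox2 at day 5.

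Few day 1 sites of either library had a Sox2 summit at day 5. In Oct4-SK, 1100 of 15219 sites (7.23%, 6.83 to 7.65) had one in the Oct4-SK library of day 5, and in Oct6-SK, 327 of 3242 (10.1%, 9.10 to 11.2) had one in its own day 5 library. The difference was -2.86 points (-4.01 to -1.78), but it was 5.81 points (3.94 to 7.67) in favour of Oct4-SK when the 2669 highest summits were taken from each of the 4 lists, this being the length of the shortest of them. For day 1 sites with a score of 10 or more it was -7.91 points (-11.7 to -4.44). By class, shared sites had a day 5 summit in Oct4-SK at 28.5% and in Oct6-SK at 25.3%. Oct4-SK-only sites had one at 6.04% and 3.72%, and Oct6-SK-only sites at 4.60% and 4.93%. When the classes were made from equal numbers of day 1 summits, these were 16.6% and 11.2% for Oct4-SK-only and 5.69% and 6.05% for Oct6-SK-only sites. In the Oct6-SK library of day 5 the Oct4-SK-only minus Oct6-SK-only difference thus turned from -1.21 points (-2.19 to -0.355) to 5.10 points (3.62 to 6.59). Of all Oct6-SK day 1 sites, 10.4% (9.39 to 11.5) had a summit in Oct4-SK at day 5, a list of 5793 summits, where the Oct6-SK list of day 5 has 2669, so this share and that of 10.1% are not set against each other.

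Across the other 4 Sox2 libraries, 32.1% of shared sites were in none and 9.96% (8.08 to 12.2) in all 4. Oct4-SK-only sites were in none at 81.5% and in all 4 at 0.735%, and Oct6-SK-only sites at 78.0% and 1.07%. Oct4 at later days showed the same order at lower levels, with summits at 10.3%, 3.49% and 1.93% of shared, Oct4-SK-only and Oct6-SK-only sites at day 5, and at 5.98%, 1.98% and 0.657% at day 7.

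Most sites were distal. A transcription start lay within 1 kb of 2.74% of shared sites (1.82 to 4.11), 6.20% of Oct4-SK-only sites (5.82 to 6.61) and 4.35% of Oct6-SK-only sites (3.61 to 5.24). Over all summits 6.02% of Oct4-SK and 4.01% of Oct6-SK sites were this close, a difference of 2.01 points (1.19 to 2.74) that was 0.278 (-0.698 to 1.25) with equal numbers. Within 5 kb were 12.5% of shared, 19.8% of Oct4-SK-only and 15.02% of Oct6-SK-only sites. At that distance Oct4-SK exceeded Oct6-SK by 5.04 points (3.64 to 6.37), and by 2.13 points (0.368 to 3.89) with equal numbers. Introns held 48.7%, 48.9% and 44.6% of shared, Oct4-SK-only and Oct6-SK-only sites, and 48.2%, 46.5% and 51.4% lay between genes. With equal numbers, 48.9% of Oct4-SK and 50.6% of Oct6-SK sites lay between genes, a difference of -1.70 points (-4.13 to 0.737). Oct6-SK sites were farther from coding starts, with 50.6% more than 100 kb away against 40.4% of Oct4-SK sites and 43.2% with equal numbers, a difference of -7.31 points (-9.73 to -4.88) in the last case. Their windows had a G+C content of 37.2% ± 6.58 (SD, n = 3242 sites) against 39.9% ± 7.33 (SD, n = 15219 sites) in Oct4-SK and 38.6% ± 5.94 (SD, n = 3242 sites) with equal numbers.

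The highest shared site, the Sox21 region, had summits within 100 bp in all but 2 of the 13 libraries, and the site nearest to Celf4 in all but 1. At Sox21, which encodes a SoxB factor of the neural lineage, the Sox2 scores were 72.7 in Oct4-SK and 25.5 in Oct6-SK at day 1, the summits being 84 bp apart. At day 5 the scores were 81.7 and 69.8, and Sox2 in Oct4defSox2-SK had 87.0 at day 1 with no summit called there at day 5. Oct4 had 77.4 at day 1, 53.9 at day 5 and 48.9 at day 7.

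The Tnfrsf19 region, with the Sox match alone, had 57.9 in Oct4-SK and 42.4 in Oct6-SK at day 1. Tnfrsf19 encodes a receptor of the TNF receptor family. At day 5 no summit was called there in Oct4-SK, and the Oct6-SK score was 9.004. The Adh7 intron, in a gene for an alcohol dehydrogenase, had 33.9 and 22.8 at day 1 and 26.4 and 18.7 at day 5, and no Oct4 summit at any day. Of the other 5, a site 93297 bp from Cd180 (51.02 and 26.7) and one between genes on chromosome 18 nearest to Celf4 (63.8 and 21.4) held a Sox match. A site 27879 bp from Nrep (47.9 and 29.3) held Sox and AP-1 matches. Sites in introns of Npas3 (56.7 and 15.7) and Uvrag (37.9 and 19.7) held none of the 8 motifs.

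The 8 highest Oct4-SK-only sites began with Gm10800 (77.8) and Gm10801 (64.4), adjacent predicted genes on chromosome 2. Both had Sox2 summits at day 5 in Oct4-SK (37.0 and 51.3), Oct6-SK (48.1 and 47.9) and Oct4defSox2-SK (76.6 and 86.0), but none in the other 2 libraries of day 1. Next came introns of Lgr4 (57.9), the receptor of R-spondins, of Trbc1 (56.7), a T-cell receptor constant segment, and of Asph (52.1). A site in Gm47389, 258036 bp from the nearest coding start (Prdm1), had 51.6. Introns of Ghr, the growth hormone receptor, and of Gm281 had 51.6 and 51.4. Asph and Ghr were Oct4-SK-only by distance, since Oct6-SK summits lay 234 bp away (score 13.9) and 125 bp away (10.2). The sites in Lgr4, Gm47389, Asph, Ghr and Gm281 had Sox2 summits in Oct6-SK at day 5, with scores of 9.004, 37.3, 17.6, 9.21 and 10.8. Of the 8, only the Trbc1 site had no Sox2 summit in Oct6-SK at day 5 within 100 bp either.

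The 8 highest Oct6-SK-only sites included 3 in coding exons of transcription factor genes. Pou3f1 had 43.6 and 21.7, with an Oct4-SK summit 190 bp from the first (score 23.9), and Sox17, an endoderm factor of the SoxF group, had 22.2 with an Oct4-SK summit of 24.5 at 141 bp. Galnt1 (26.9) and the intron of Limch1 (19.8) likewise had Oct4-SK summits 131 bp (10.8) and 101 bp (16.9) away. Without an Oct4-SK summit within 1000 bp were an intron of Gm47214 (25.3), a site at chr1:108062720-108062920 (23.7) and a site 1835572 bp from Flrt2 (20.3). The chromosome 1 and Flrt2 sites had no Sox2 summit in the other 5 Sox2 libraries. The Flrt2 window held Sox and AP-1 matches, and the chromosome 1 window a Sox match.

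Summits in the coding exons of the genes carried by the retroviruses were common to the Sox2 libraries. The highest Oct6-SK site was in a coding exon of Pou5f1, 275 bp from its start, with 71.5 in Oct6-SK and 28.0 in Oct4-SK, although the Oct6-SK cocktail has no Oct4 virus. Pou3f1 exon summits were 3 in Oct6-SK (43.6, 21.7 and 14.7) and 1 in Oct4-SK (23.9). In the coding exon of Sox2 the scores were 26.1 in Oct4-SK and 17.98 in Oct6-SK. All 6 Sox2 libraries had coding exon summits in Sox2, Pou5f1, Pou3f1 and also Sox17, which is in none of the cocktails, while among the 6 libraries only Oct4defSox2-SK at day 5 had one in Klf4 (9.53). Such summits were not confined to the Sox2 antibody. The Oct6 M151S list, made with an antibody against the POU factor, had them in Sox2 (14.4), Klf4 (13.3), Pou3f1 (111.7 and 344.4) and Sox17 (17.9 at the highest). Its Pou5f1 summit (2.47) was in an intron. Reads from viral cDNA and from the endogenous exons cannot be told apart in these lists. Leaving out coding exons and both Gm genes, an alternative added after the data were seen, gave 5.29% and 24.8% shared, against 5.28% and 24.9%.

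Sites were then assigned to every coding gene with a start within 50 kb. Of 21911 coding genes, 8554 (39%) had an Oct4-SK site, 1629 (7.43%) an Oct6-SK site and 432 (1.97%) a shared site. A gene in reach of both libraries was more common than a shared site, as 1127 of the 1629 Oct6-SK genes (69.2%, 66.9 to 71.4) also had an Oct4-SK site, against 39% of all coding genes. With equal numbers it was 587 (36.0%, 33.7 to 38.4), against 9.21% of all coding genes. An Oct4-SK site without an Oct6-SK site was found for 7427 coding genes (33.9%). In the lists below this held for 6 of 25 pluripotency, 12 of 26 mesenchymal, 7 of 20 epithelial and 7 of 22 neural genes. It also held for 6 of 20 other Sox and POU and 4 of 8 other Klf genes. Nothing particular to a list is read from the genes named for Oct4-SK alone. The gene lists below were chosen with earlier results of these data known, and their counts are set beside these backgrounds as a description.

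Of 25 pluripotency genes, 10 had an Oct4-SK site (40%), 4 an Oct6-SK site (16%) and 3 a shared site (12%). The shared sites were the coding exon sites of Pou5f1 and Sox2 given above and a site 42094 bp from Zfp42 (Rex1), with 9.19 in Oct4-SK and 6.29 in Oct6-SK. In reach of Oct4-SK alone, the highest were Klf4 (18.8, 6264 bp from a start), Klf5 (7.60) and Tfcp2l1 (6.22), factors of the naive network. No site of either library was within 50 kb of Nanog or Esrrb. For this list the Oct4-SK share was near the background of 39%, and 2 of its 3 shared sites were the exon sites of Pou5f1 and Sox2.

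Of 26 mesenchymal genes, 18 had an Oct4-SK site (69.2%), 6 an Oct6-SK site (23.1%) and 4 a shared site (15.4%). Cdh2, encoding N-cadherin, had its shared site 121 bp from a start, with 21.2 in Oct4-SK and 5.37 in Oct6-SK. Runx1 (13.4 and 8.59, 42013 bp), the collagen gene Col3a1 (9.80 and 7.17, 29810 bp) and the TGF-beta receptor gene Tgfbr1 (4.26 and 6.29, 13653 bp) had shared sites farther away. The highest Oct4-SK scores without an Oct6-SK site were at Fn1, encoding fibronectin (24.97), Vim, encoding vimentin (16.3), and Tgfb2 (10.8). Gene length and neighbourhood set how many sites a gene can have within reach, and their part in these counts was not tested.

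Of 20 epithelial genes, 7 had an Oct4-SK site (35%) and 4 an Oct6-SK site (20%), with no gene in reach of both. Over all coding genes, 502 of the 1629 Oct6-SK genes had no Oct4-SK site, and nothing particular to this list is read from its 4 genes. The Oct4-SK genes were led by Rab25 (10.3), a trafficking GTPase, and Grhl2 (9.19), an epithelial transcription factor. The Oct6-SK genes were the keratin genes Krt8 and Krt18, both in reach of 1 site (6.01), the splicing regulator gene Esrp2 (5.54) and Epcam (4.24). Cdh1, encoding E-cadherin, had no site of either library within 50 kb.

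Of 22 neural genes, 10 had an Oct4-SK site (45.5%), 3 an Oct6-SK site (13.6%) and 1, Sox21, a shared site. The Notch ligand gene Dll1 (27.7), the POU gene Pou3f2 (11.6) and the proneural gene Neurog2 (9.80) had Oct4-SK sites alone. Of 20 other Sox and POU genes, 10 had an Oct4-SK site (50%) and 6 an Oct6-SK site (30%). Over all coding genes these shares were 39% and 7.43%. Pou3f1 and Sox17 are in both counts only through the coding exon summits given above. The shared site was at Sox6 (17.0 and 9.55, 20274 bp), while Sox13 (19.7), Sox5 (11.6) and Pou6f1 (10.97) had Oct4-SK sites alone, and Pou4f1 (6.29) and Sox7 (5.20) Oct6-SK sites alone. Of 8 other Klf genes, 5 had an Oct4-SK site (62.5%) and 1, Klf7 (11.6 in Oct4-SK and 7.32 in Oct6-SK), also an Oct6-SK site (12.5%), with none shared. Those with an Oct4-SK site alone were led by Klf13 (15.2), Klf12 (11.6) and Klf10 (9.19).

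**Figure D5:**
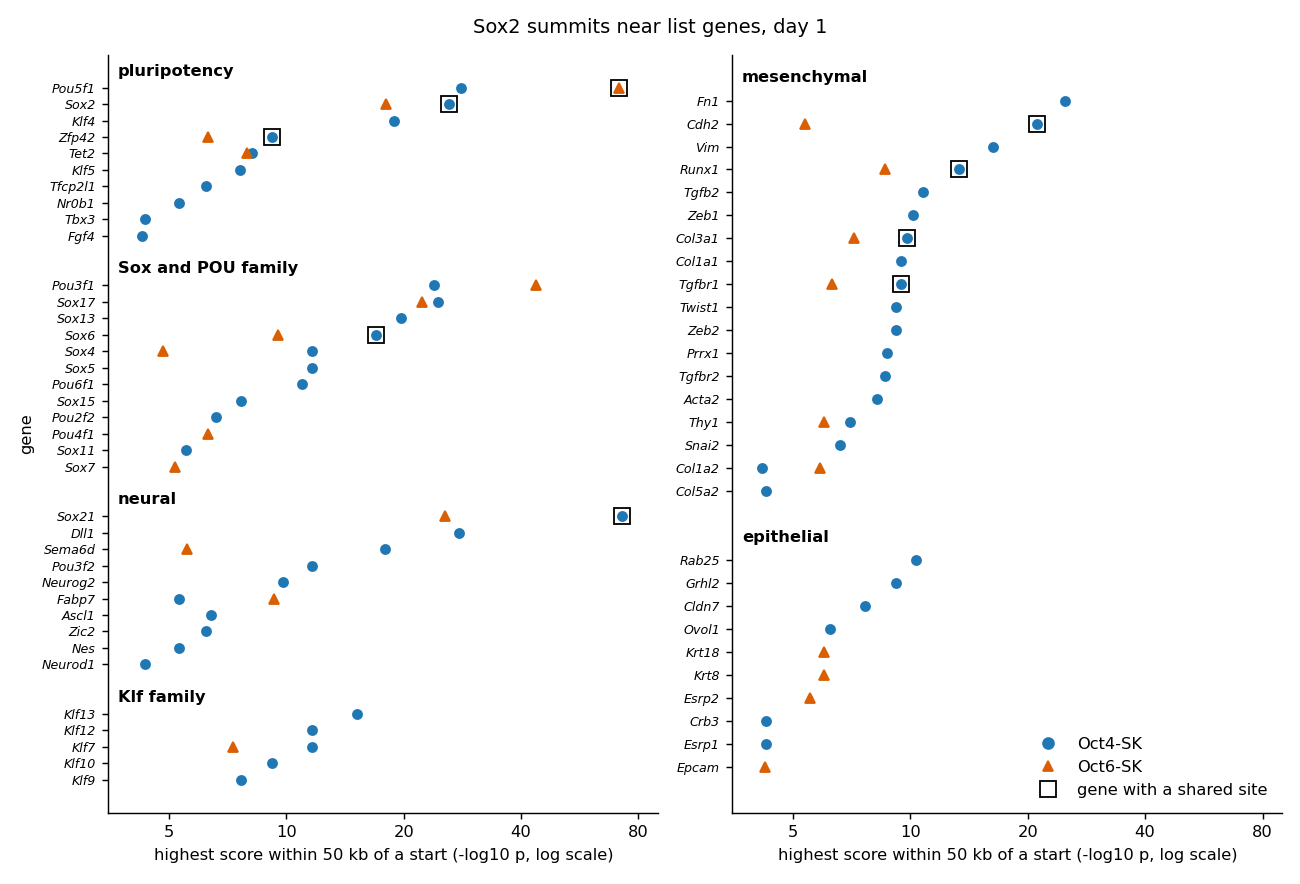
Highest Sox2 day 1 score (x axis, -log10 p, log scale) within 50 kb of a start of the list genes that had a site (1 gene is not shown), in Oct4-SK (circles) and Oct6-SK (triangles); each point is 1 library. Squares mark genes with a shared site, such as Sox21 (72.7 and 25.5) and Pou5f1 (28.0 and 71.5).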

How the data were processed

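Sox2 ChIP-seq summit lists of Oct4-SK and Oct6-SK at day 1 were compared, with the 11 other lists as references. The authors aligned reads with Bowtie2 2.2.5 and called peaks with MACS2 at a p-value threshold of 0.0001 (submitters' processing notes also name SAMtools, bedtools and FastQC, with no versions given there), and deposited 1 line per summit on mm10 with the score, the −log10 p-value of the enrichment. The scores of 12 lists start at 4 or above, as this threshold gives, but those of Oct6 M151S start at 2.301 with a median of 3.74, so that list was called at a looser threshold, not given in the sources used here. No reads or coverage were analysed and the summit lists hold no depth, so counting intervals of shares are the only precision given, and the inputs (3) are not used here.

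Summits on chromosomes 1 to 19, X and Y were kept (0 lay past a chromosome end). Ties in score were broken by chromosome and position. Equal numbers means the 3242 highest summits of each day 1 Sox2 list compared, with the reference lists whole, and the 2669 highest of all 4 lists where day 5 is compared. Windows of 201 bp, and flanks 2 kb away, were read from RefSeq's copy of GRCm38 and scanned with Python 3.11.15, numpy 2.4.6, scipy 1.17.1, pysam 0.24.0 and matplotlib 3.10.9. Gene positions came from a GRCm38 annotation. The procedure was tested on simulated data. Named sites were the 8 highest of each class (shared sites by summed rank), and named genes were the list genes with a shared site and up to 3 per list with the highest score in 1 library alone, of which 1 is not reported here. Other genes named were chosen after their values were seen. The members and lists were chosen with earlier results of these data known. Alternatives were other sharing distances, score minimum, equal numbers, 1 summit per peak, all sequences, windows, mismatches, promoter distance and leaving out sites at an Oct6 M151S summit.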

Additional observations from a re-analysis of the deposited data

Results flagged for a closer look

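For 5 motifs the difference between Oct4-SK and Oct6-SK Sox2 sites at day 1 was not that of day 5, the interval of the change excluding 0 (counting error only, 1 library per group). The Oct4-SK minus Oct6-SK share of the Sox motif was -7.79 points at day 1 and -1.99 at day 5, a change of -5.80 (-8.53 to -3.08). For MORE it was -0.842 and 0.209, a change of -1.05 (-1.73 to -0.406). For the octamer it was -1.11 and -0.0422, a change of -1.07 (-2.12 to -0.0177), and for AP-1 -2.62 and -0.127, a change of -2.50 (-4.35 to -0.642). For the KLF motif it was 0.369 and 1.75, a change of -1.38 (-2.35 to -0.386), its share rising from 1.29% to 5.20% of sites in Oct4-SK and from 0.925% to 3.45% in Oct6-SK.

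With 2669 top-ranked summits in all 4 libraries, an alternative chosen after seeing the data, the changes for Sox (-4.23, -7.81 to -0.651) and KLF (-2.62, -3.90 to -1.36) still excluded 0. The Sox difference was then 3.26 points at day 1 and 7.49 at day 5, so its sign turned on both days. The intervals of the changes for MORE (-0.487), the octamer (-0.225) and AP-1 (-0.112) spanned 0. Cause was not tested for any of the 5.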

How the results depend on the processing

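Of 66 values recomputed under other settings, 40 kept their direction and their side of 0, or stayed within the interval of the reported share. The shared part of Oct4-SK sites (5.28%) was 2.96% within 50 bp, 8.03% within 250 bp, 15.4% with equal numbers, 17.3% with 1000 summits each and 4.17% without sites at an Oct6 M151S summit. That of Oct6-SK sites (24.9%) was 13.9%, 37.9%, 15.4%, 17.3% and 21.5% under the same settings and 38.6% at a score of 10 or more. With equal numbers the Oct4-SK minus Oct6-SK difference changed sign for SoxOct (2.16), Sox (4.16), AP-1 (1.73) and the share with a day 5 summit (5.81, at 2669 summits), and its interval came to span 0 for MORE (-0.370), the octamer (-0.0925) and a start within 1 kb (0.278). At a score of 10 or more the octamer changed sign (0.777), and the intervals for MORE (-0.757), AP-1 (-1.67) and a start within 1 kb (0.977) spanned 0. A window of 50 bp to each side did so for MORE (-0.301) and the octamer (-0.381), and 0 mismatches for MORE (-0.0531), while up to 2 mismatches moved MORE to -5.11 (-6.53 to -3.76), and with up to 3 the interval for SoxOct (-2.35, -3.94 to -0.819) came to exclude 0. With 50 bp as the limit the excess of shared over Oct4-SK-only sites fell to 13.1 points for an Oct4 summit and to 25.5 for an Oct4defSox2-SK Sox2 summit, and that over Oct6-SK-only sites to 21.2. For a start within 5 kb the Oct4-SK minus Oct6-SK difference was 5.04. The change of the SoxOct difference from day 1 to day 5, -0.836, was 0.937 with equal numbers, and both intervals span 0. Equal numbers use fewer Oct4-SK summits; the cause of the other shifts was not tested.

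No paired analysis was possible because each group holds 1 library. The summit lists give no depth, so a summit missing from a list does not show that Sox2 was absent.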
